A study of Homo sapiens with 2 samples.

Results

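The transcripts of 10 genes of the NF-kB system were followed in A2780, an established cell line from a human ovarian cancer. The genes were taken by symbol from the 58735 rows of the deposited expression table: the subunits RELA, REL, RELB, NFKB1 and NFKB2, the inhibitors NFKBIA, NFKBIB and NFKBIE, the ubiquitin-editing inhibitor TNFAIP3, and the kinase gene IKBKB. All 10 symbols were found, each in 1 row. Poly(A)-selected RNA had been sequenced in 1 library labelled shControl, with a genotype given as wild type and described as an empty-vector control, and in 1 library labelled shJAM3, from cells with stable knockdown of the adhesion gene JAM3. The design text calls the knockdown an siRNA and the titles carry the prefix sh. Both libraries came from log-phase cultures, and the labels give neither the construct nor the number of clones.

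NF-kB proteins are dimers of Rel-family subunits, which share a Rel homology region that binds DNA and IkB proteins. IkB inhibitors hold the dimers in the cytoplasm until the IkB kinase complex marks them for degradation, and freed dimers then activate genes that include their own inhibitors. RELA with the NFKB1 product p50 serves the canonical pathway, and RELB with the NFKB2 product p52 serves the slower non-canonical one. In ovarian cancer cells the system is known for driving inflammatory cytokines and survival genes.

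The promoter sequences are shown because several of these genes are known to be regulated by NF-kB itself. RefSeq promoter windows of 300 bases (250 before to 50 after a start, GRCh38.p14) were at hand for 7 of the 10 genes, and not for RELB, NFKBIE and IKBKB. The 7 genes had 12 windows, and 7 of these, from 6 genes, held the classical kB consensus on either strand. It occurs in 11.3% of all 34943 such windows. RELA was the gene with windows but no match to the consensus. The NFKBIA window, shown for its 250 upstream bases, lies at chr14:35404750-35404999 and is written on the gene's minus strand. Capitals mark the match, which begins 81 bases before the start.
NFKBIA: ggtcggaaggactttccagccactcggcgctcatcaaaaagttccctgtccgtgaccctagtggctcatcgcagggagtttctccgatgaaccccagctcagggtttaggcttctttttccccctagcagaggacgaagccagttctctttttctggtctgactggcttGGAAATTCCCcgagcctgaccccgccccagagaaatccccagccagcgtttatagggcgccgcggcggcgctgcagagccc

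For the other genes, 30 bases around a match are shown on the gene's strand, with every base covered by a match in capitals. A further match each of NFKB2 and NFKBIB is left out. All are on the plus strand of GRCh38.p14. TNFAIP3 is at chr6:137867188-137867217 and carries a pair of matches 2 bases apart, both read from the opposite strand. NFKB1 is at chr4:102501300-102501329 and REL at chr2:60881518-60881547. NFKB2 site a is at chr10:102394462-102394491, site b at chr10:102394490-102394519 and site c at chr10:102395674-102395703, the last before another of its starts. NFKBIB is at chr19:38899932-38899961.
TNFAIP3: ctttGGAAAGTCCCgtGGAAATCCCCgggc
NFKB1: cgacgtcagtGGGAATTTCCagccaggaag
REL: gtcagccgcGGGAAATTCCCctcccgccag
NFKB2 site a: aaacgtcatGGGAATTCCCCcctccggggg
NFKB2 site b: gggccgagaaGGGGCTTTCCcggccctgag
NFKB2 site c: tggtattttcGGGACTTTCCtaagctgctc
NFKBIB: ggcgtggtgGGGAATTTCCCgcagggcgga

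A match to the consensus describes these letters and shows no binding. The genes with a match stood on both sides between the libraries: by the ratio of shJAM3 to shControl, NFKBIA was among the lowest of the 10 and TNFAIP3 was the highest. Over the 8385 measured protein-coding genes with a promoter window, the 1483 with the consensus had a median log2 ratio of -0.05 and the others 0.01. After centring on genes of like GC content these medians were -0.02 and 0.00. Of the 29 listed NF-kB target genes with a window, 19 (65.5%) held the consensus. The share was 13.3% of all 27305 genes with a window, and 17.7% of the measured protein-coding ones. Because those 29 were listed as known targets, their share describes the list and tests nothing.

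Fragments assigned to genes numbered 15570262 in the shControl library and 16455079 in shJAM3. Levels are FPKM, which divide a gene's fragments by its length in kilobases and by the size of the library. The length is that of all annotated exons of the gene merged, so comparisons of level between genes depend on it. With 1 library per condition no test of the conditions was possible, and every ratio below compares 2 libraries. Brackets hold 95% intervals computed from the recovered fragment numbers, which cover counting error only and leave out the spread between cultures. The 10 genes were chosen by family, with the log2 ratios of this same comparison in view, so their ratios are given as a description with no test. JAM3 itself was below 1 FPKM in both libraries, at 0.215 in shControl and 0.154 in shJAM3, from 18 and 14 fragments. Its ratio was 0.716 (0.330 to 1.52), an interval that held 1. With so little JAM3 transcript in the control, the knockdown could not be checked in these data. Of the epithelial and ovarian carcinoma markers, KRT8 was at 139 and 153 FPKM, KRT18 at 145 and 165 and FOLR1 at 845 and 1012, in shControl and shJAM3. VIM was at 44.9 and 50.2 and MUC16 at 0.475 and 1.07. KRT7 was at 140 and 93.4, MSLN at 198 and 127 and PAX8 at 1.12 and 0.527. EPCAM, CDH1, WT1, ESR1 and KRT19 were each below 1 FPKM in both libraries. Of the fibroblast markers, COL1A1 was at 13.5 and 11.3 FPKM and PDGFRB at 3.79 and 2.99. COL1A2, DCN and LUM were below 1 FPKM in both. The markers of leukocytes, in which NF-kB genes are often high, summed to 3.00 FPKM in shControl and 1.49 in shJAM3. CD14 was the largest part of this sum, at 2.28 and 0.763. Of these 12 markers 6, PTPRC among them, had no fragment in either library. In these bulk samples fewer cells with a transcript and less of it per cell cannot be told apart.

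Of the 10 genes, 7 were lower in shJAM3 than in shControl and 3 were higher. Of all measured genes, 49.5% were lower and 50.5% higher. Genes were taken as measured when their mean level was 1 FPKM or more, which left 9 of the 10, without REL. With a log2 ratio on the scale log2(FPKM + 1) of at least 1 in either direction taken as past a rule of size, 2 of the 9 were past it on the lower side, NFKBIA and RELB, against 2.10% of the 12214 measured genes. None of the 9 was past it on the higher side, against 1.30% of measured genes. The counting interval lay below 1 for 7 of the 10 genes, against 33.6% of measured genes, and above 1 for 2, against 33.0%. The median log2 ratio was -0.41 over the 9 and the same over all 10, beside 0.00 over all measured genes. After the genes were centred on others of like GC content it was -0.41 over the 9 and -0.26 over all 10, beside 0.01.

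**Figure D1:**
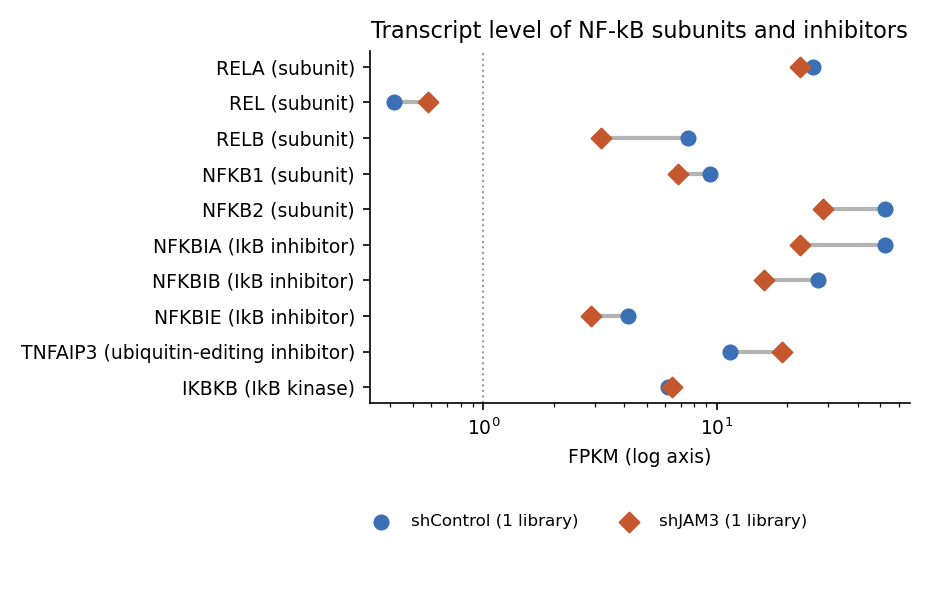
FPKM on a log axis for each gene, with the role of its product in brackets. Circles are the shControl library, diamonds the shJAM3 library, and the dotted line is 1 FPKM. NFKB2 and NFKBIA lead in shControl at 52.4 and 52.5, and TNFAIP3 is the gene above 1 FPKM whose diamond lies clearly to the right.

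Among the subunits, NFKB2 had the highest FPKM in both libraries. NFKB2 (ENSG00000077150, chromosome 10, 102394110 to 102402529, plus strand), which encodes p100, the precursor of p52 and itself an inhibitor through its ankyrin repeats, was at 52.4 FPKM in the control and 28.5 FPKM in shJAM3. Its ratio was 0.543 (0.514 to 0.573), from 3611 and 2128 fragments. RELB (ENSG00000104856, chromosome 19, 45001430 to 45038198, plus strand), the partner of p52, was at 7.55 FPKM and 3.20 FPKM, with a ratio of 0.424 (0.350 to 0.512). Both genes of the non-canonical dimer were thus lower in shJAM3, and RELB rested on 352 and 162 fragments, fewer than any other measured gene of the 10 but NFKBIE.

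The genes of the canonical dimer had ratios nearer 1 in the deposited values. RELA (ENSG00000173039, chromosome 11, 65653596 to 65663094, minus strand), which carries the main transactivation domain, was at 25.7 FPKM in the control and 22.7 FPKM in shJAM3. Its ratio was 0.885 (0.833 to 0.941). NFKB1 (ENSG00000109320, chromosome 4, 102501329 to 102617302, plus strand), which encodes p105 and p50, was at 9.34 and 6.83 FPKM, with a ratio of 0.731 (0.662 to 0.808). Both were lower in shJAM3, and the intervals of RELA and NFKB1 did not overlap each other or those of NFKB2 and RELB. This order depended on GC content: after centring on genes of like GC content, NFKB1 was at -0.46 on the log2 scale (-0.60 to -0.32), overlapping NFKB2 at -0.44 (-0.52 to -0.37) and RELB at -0.68 (-0.95 to -0.40), and RELA was at 0.00 (-0.09 to 0.09).

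REL (ENSG00000162924, chromosome 2, 60881521 to 60931610, plus strand) encodes c-Rel, a subunit best known in lymphocytes. It was at 0.415 FPKM in the control and 0.578 FPKM in shJAM3, from 84 and 127 fragments, and had a ratio of 1.39 (1.05 to 1.86). An annotated transcript on the same strand, AC010733.2, covers 43.3% of the REL exon bases and is listed at 0 FPKM in both libraries. The sources used here do not say how fragments under both genes were counted, so how much of the REL level was lost or kept in that stretch is unknown.

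The make-up of the subunit transcripts differed between the libraries. Summed per length, the 5 subunits came to 95.4 FPKM in shControl and 61.8 in shJAM3. NFKB2 made up 54.9% of that sum in shControl and 46.0% in shJAM3, and RELA 26.9% and 36.8%. RELB took 7.91% and 5.18%, NFKB1 9.79% and 11.1%, and REL 0.435% and 0.936%. RELA therefore held a larger share of a smaller sum in shJAM3, while its own level was the subunit level that differed least in FPKM ratio.

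All 3 IkB inhibitors were lower in shJAM3. NFKBIA (ENSG00000100906, chromosome 14, 35401511 to 35404749, minus strand) encodes IkB-alpha, the fast feedback inhibitor that NF-kB induces. It was at 52.5 FPKM in the control and 22.7 FPKM in shJAM3, from 1915 and 899 fragments, and had a ratio of 0.432 (0.399 to 0.468). Only 0.524% of the measured protein-coding genes had a lower log2 ratio than NFKBIA, which describes its rank and tests nothing.

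NFKBIB (ENSG00000104825, chromosome 19, 38899700 to 38908893, plus strand) encodes IkB-beta, a slower inhibitor of RELA and c-Rel dimers. It was at 27.0 FPKM in the control and 15.9 FPKM in shJAM3, with a ratio of 0.588 (0.531 to 0.652). NFKBIE (ENSG00000146232, chromosome 6, 44258166 to 44265788, minus strand) encodes IkB-epsilon and was the least abundant of these inhibitors, at 4.16 and 2.88 FPKM. Its ratio was 0.692 (0.544 to 0.879), from 165 and 124 fragments. The order by level, NFKBIA, NFKBIB and NFKBIE, was the same in both libraries, and the intervals of the NFKBIB and NFKBIE ratios overlapped.

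TNFAIP3 went the other way from NFKBIA, although both are feedback inhibitors with kB matches in their promoter windows. TNFAIP3 (ENSG00000118503, chromosome 6, 137867188 to 137883312, plus strand) encodes A20, which edits ubiquitin chains on signalling proteins upstream of the IkB kinase. It was at 11.4 FPKM in the control and 18.9 FPKM in shJAM3, from 884 and 1595 fragments, and had a ratio of 1.66 (1.53 to 1.81). Of the measured protein-coding genes, 97.2% had a lower log2 ratio. An antisense gene, AL357060.1, shares 95 exon bases, 1.88% of TNFAIP3, and had 38 fragments in shControl and 192 in shJAM3, which gives a ratio of 4.65 (3.27 to 6.78). The protocol describes no step that marks the strand, so fragments in that shared stretch cannot be assigned to either gene.

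IKBKB, on chromosome 8, encodes IKK-beta, the kinase that phosphorylates IkB-alpha. It was at 6.17 FPKM in the control and 6.42 FPKM in shJAM3, from 1066 and 1204 fragments. The ratio was 1.04 (0.957 to 1.13), the one interval among the 10 that held 1.

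**Figure D2:**
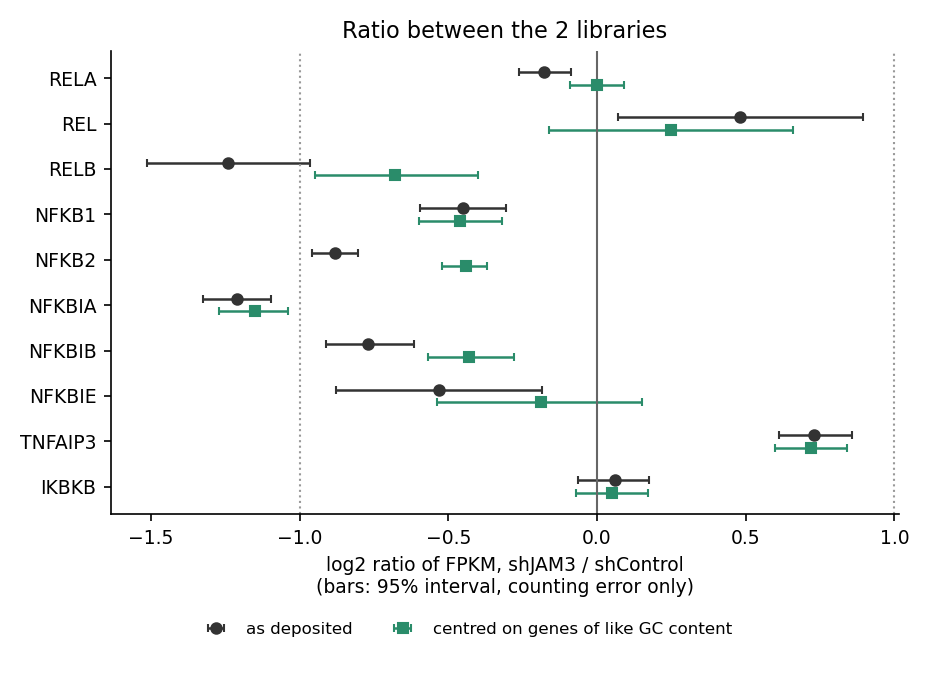
log2 ratio of FPKM, shJAM3 over shControl, without an added pseudocount. Circles are the deposited values, squares the values after the median of protein-coding genes of like GC content was taken off, bars are 95% intervals for counting error only, and dotted lines mark 2-fold. NFKBIA stays near its value (-1.21 and -1.15), as does TNFAIP3 (0.73 and 0.72), while RELB and NFKB2 move towards 0 (-0.68 and -0.44).

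The ratios moved with the GC content of the transcripts. Over 10496 measured protein-coding genes the log2 ratio correlated with GC content at r = -0.50, and over the 10 genes at r = -0.64, both as descriptions across genes of the same 2 libraries. RELB has the highest GC content of the 10, 65.4%, and REL the lowest, 38.7%, beside a median of 49.1% for measured protein-coding genes. NFKBIA, at 53.1%, and TNFAIP3, at 49.5%, lie near that median. After centring on genes of like GC content, the log2 ratio without a pseudocount was -1.15 for NFKBIA (-1.27 to -1.04) and 0.72 for TNFAIP3 (0.60 to 0.84).

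The GC-rich genes lay nearer 0 after the same centring. RELB went from -1.24 to -0.68 (-0.95 to -0.40), NFKB2 from -0.88 to -0.44 (-0.52 to -0.37) and NFKBIB from -0.77 to -0.43 (-0.57 to -0.28). NFKB1, with 50.1% GC, was at -0.45 before and -0.46 after (-0.60 to -0.32). RELA was then at 0.00 (-0.09 to 0.09), NFKBIE at -0.19 (-0.54 to 0.15), REL at 0.25 (-0.16 to 0.66; -0.03 on the scale log2(FPKM + 1), of the opposite sign) and IKBKB at 0.05 (-0.07 to 0.17). After centring, 5 of the 10 intervals thus lay below 0, 1 above and 4 held 0. The same shares over all measured genes after centring are not given here. Before centring, 33.6% of all measured genes had intervals on the lower side and 33.0% on the higher side.

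**Figure D3:**
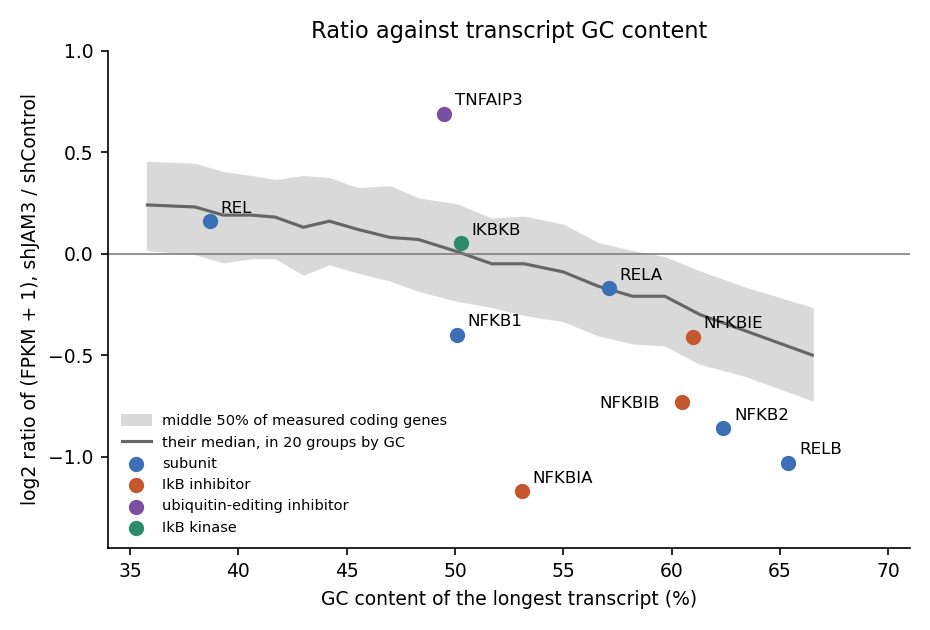
log2 ratio on the scale log2(FPKM + 1) against the GC content of each gene's longest transcript. The line is the median and the band the middle 50% of measured protein-coding genes in 20 groups by GC content, and each labelled point is 1 of the 10 genes, coloured by role. RELA, NFKBIE, REL and IKBKB lie inside the band and TNFAIP3 (0.69) above it. NFKBIA (-1.17), RELB (-1.03), NFKB2 (-0.86), NFKBIB (-0.73) and NFKB1 (-0.40) lie below it.

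Ratios between genes of the same library do not depend on how the libraries were scaled to each other. Per length, NFKBIA was 2.05 times RELA in shControl (1.92 to 2.18) and 0.999 times in shJAM3 (0.923 to 1.08). NFKBIB was 1.05 times RELA (0.972 to 1.13) and 0.698 times (0.637 to 0.764). NFKBIE was 0.162 times RELA (0.137 to 0.190) and 0.127 times (0.105 to 0.152), intervals that overlapped. The summed IkB transcripts were 0.877 times the summed subunit transcripts in shControl and 0.671 times in shJAM3. Relative to the subunits, shJAM3 thus held less IkB transcript in these sums, of which NFKBIA made up 62.8% in shControl and 54.8% in shJAM3. After GC centring NFKBIA, at -1.15 on the log2 scale, was lower than every subunit. NFKBIB (-0.43) and NFKBIE (-0.19) were then lower than RELA (0.00) and REL (0.25). They were not lower than NFKB1 (-0.46), NFKB2 (-0.44) or RELB (-0.68). Protein levels and nuclear NF-kB were not measured here.

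Among the gene pairs set against each other here, which were chosen with their values known, TNFAIP3 and NFKBIA differed most between the libraries. TNFAIP3 was at 0.217 times the per-length level of NFKBIA in shControl (0.200 to 0.235) and at 0.834 times in shJAM3 (0.768 to 0.906), a 3.84-fold difference between the libraries. On the log2 scale this is 1.94, and 1.87 after GC centring. Relative to RELA, TNFAIP3 was at 0.444 in shControl (0.410 to 0.480) and 0.833 in shJAM3 (0.780 to 0.889). The precursor genes also stood differently: NFKB2 was 5.61 times NFKB1 in shControl (5.21 to 6.04) and 4.16 times in shJAM3 (3.82 to 4.54), but the log2 difference of -0.43 was 0.02 after GC centring.

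**Figure D4:**
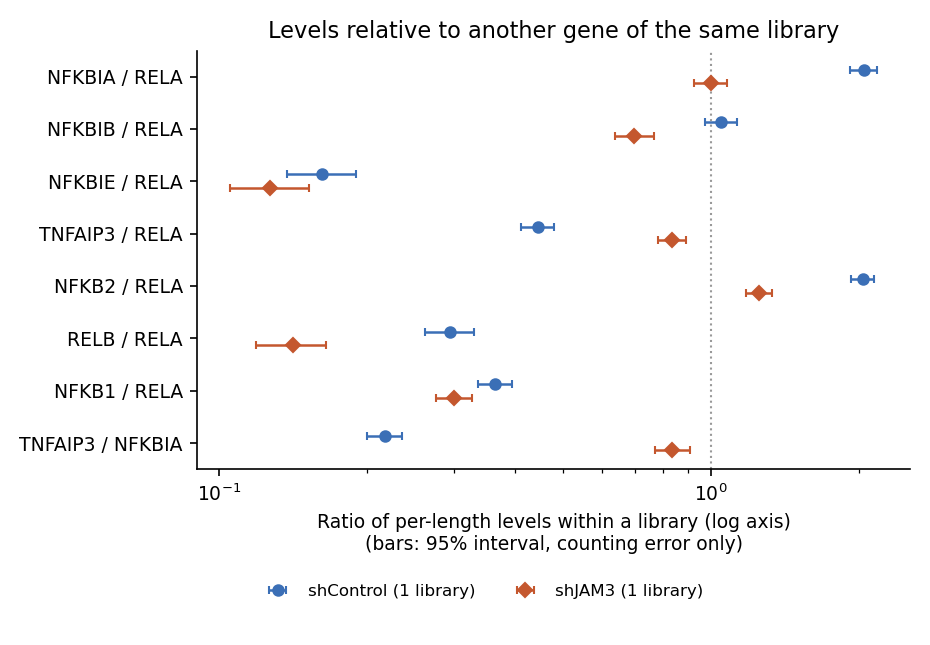
Ratio of the per-length levels of 2 genes within each library, on a log axis. Circles are shControl, diamonds shJAM3, and bars are 95% intervals for counting error only. TNFAIP3 over NFKBIA goes from 0.217 to 0.834, and NFKBIA over RELA from 2.05 to 0.999.

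Other genes of the pathway were described by 9 lists of 139 distinct genes, of which 93 were measured. Of the 93, 56 were lower and 37 higher in shJAM3, with a median log2 ratio of -0.18, or -0.08 after GC centring. Past the rule of size on the lower side were 2 of the 93 (2.15%), NFKBIL1 and IER3, and none on the higher side, beside 2.10% and 1.30% of all measured genes, so the lower share was near that of all genes. After GC centring 2 of the 93 were again past it on the lower side, IER3 and IL6, beside 1.45% of all measured genes. NFKBIL1 no longer was. None was past it on the higher side, beside 1.33%.

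Further genes named as IkB relatives were lower too. NFKBIL1, named for its likeness to the IkB proteins, was at 35.5 FPKM in the control and 16.3 FPKM in shJAM3 (ratio 0.460, 0.412 to 0.514), and GC centring took its log2 ratio from -1.07 to -0.69. NFKBID, a nuclear IkB, was at 2.69 and 1.24 FPKM (0.461, 0.337 to 0.623), with a log2 ratio of -0.72 before centring and -0.34 after it, as for the median of the 3 measured genes of this list. BCL3, a nuclear IkB that works with p50 and p52 dimers, was at 25.3 and 18.2 FPKM (0.719, 0.661 to 0.782), and its log2 ratio was 0.04 after GC centring, of the opposite sign to its uncentred -0.45. NFKBIZ was at 0.827 and 0.589 FPKM, below the level taken as measured.

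The IkB kinase genes were not lower as the inhibitors were. Of the 7 genes of kinases and their partners 6 were higher, with a median of 0.23 (0.21 after GC centring). CHUK, which encodes IKK-alpha, was at 5.26 FPKM in the control and 6.34 FPKM in shJAM3, and IKBKG, the regulatory subunit NEMO, at 3.25 and 3.89. GC centring took the log2 ratio of CHUK from 0.23 to -0.01 and that of AZI2 from 0.16 to -0.07, so their direction turned. IKBKB was 1.17 times CHUK per length in shControl (1.06 to 1.30) and 1.01 times in shJAM3 (0.924 to 1.11). These catalytic subunit genes were thus near each other per length of merged annotated exons. Their fragments were not, with 560 and 732 for CHUK beside 1066 and 1204 for IKBKB.

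The IKK-related kinase genes TBK1 and IKBKE were at 4.09 and 1.22 FPKM in shControl and at 5.70 and 1.96 in shJAM3. Their adaptor genes differed in direction. TANK was at 1.93 and 3.41 FPKM (ratio 1.77, 1.46 to 2.15) and AZI2 at 2.14 and 2.52, while TBKBP1 was at 12.8 and 6.42 (0.502, 0.447 to 0.563).

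Genes that carry out IkB degradation were mostly higher, 6 of 7, with a median of 0.31 (0.12 after GC centring). BTRC, which encodes beta-TrCP, the ubiquitin ligase subunit that recognises phosphorylated IkB, was at 5.25 FPKM in the control and 9.85 FPKM in shJAM3 (ratio 1.88, 1.69 to 2.09). Its paralogue FBXW11 was the exception, at 18.5 and 12.1 FPKM (0.653, 0.605 to 0.706). The ligase components SKP1 and RBX1 had ratios of 1.43 and 1.27. After GC centring the log2 ratios of BTRC and FBXW11 were 0.67 and -0.73, so the opposite directions of the paralogues remained.

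Upstream adaptors, kinases and ligases were lower in 20 of 31 cases (median log2 ratio -0.20, or -0.12 after GC centring). The furthest from 0 were TICAM1, the adaptor of TLR3 (48.1 and 27.1 FPKM), TRAF2, a signalling adaptor of TNF receptors (61.8 and 35.8), RBCK1, a subunit of the linear ubiquitin ligase (61.8 and 36.0), and CARD10 (41.1 and 26.1). Their longest transcripts have GC contents between 61.3% and 65.4%, and their log2 ratios moved from between -0.81 and -0.64 to between -0.47 and -0.14 on centring. Of 18 deubiquitinase and other inhibitor genes 12 were lower (median log2 ratio -0.21, or -0.18 after GC centring). TNIP2, whose product binds A20, was at 36.5 and 19.6 FPKM, OTUD7B, a deubiquitinase related to A20, at 7.38 and 4.35, ZC3H12A, an RNase that limits cytokine mRNAs, at 8.30 and 4.73, and PPP1R13L, which encodes a protein that binds RELA, at 33.9 and 19.7. Their log2 ratios after centring were -0.56 for TNIP2, -0.72 for OTUD7B, -0.40 for ZC3H12A and -0.26 for PPP1R13L, the last from -0.75. TNIP1, which also encodes an A20-binding protein, was at 15.7 and 17.9 FPKM (ratio 1.14, 1.07 to 1.23), on the same side as TNFAIP3. TAX1BP1 and RNF11, whose products work in complexes with A20, had ratios of 1.02 (0.953 to 1.08) and 1.11 (1.01 to 1.22), and their log2 ratios of 0.02 and 0.15 were -0.05 and -0.04 after centring. ITCH, of the same list, had a ratio of 0.940 (0.878 to 1.01), and its log2 ratio was -0.27 after centring. The partner genes named here were picked by hand. They stood on both sides, and the interval of TAX1BP1 held 1.

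Receptors that signal to NF-kB were lower in 5 of 6 measured cases (median log2 ratio -0.29, or -0.08 after GC centring). LTBR, the lymphotoxin receptor that feeds the non-canonical pathway, was at 57.3 FPKM in the control and 36.4 FPKM in shJAM3 (ratio 0.635, 0.609 to 0.662). TNFRSF1A, the main TNF receptor, was at 50.5 and 39.6, TNFRSF12A at 71.4 and 55.8, and TLR6 at 1.78 and 2.41. GC centring took the log2 ratio of TNFRSF12A from -0.35 to 0.04. Of 11 ligand genes only IL18 (10.9 and 18.2 FPKM) and TNFSF12 (1.39 and 1.63) were measured.

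NF-kB target genes, other than the 10, were lower in 12 of 19 measured cases (median log2 ratio -0.45, or -0.24 after GC centring). IER3, an early response gene that modulates apoptosis, was at 158 FPKM in the control and 63.8 FPKM in shJAM3 (ratio 0.405, 0.380 to 0.431). PTGS2, the inducible cyclooxygenase, was at 8.46 and 4.78 FPKM, and the cytokine gene CSF1 at 2.56 and 1.14. IL6 was at 7.02 and 3.25 FPKM. GC centring left IER3 at -1.08, IL6 at -1.08, PTGS2 at -0.95 and CSF1 at -0.52 on the log2 scale.

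The NFAT genes encode proteins that share a Rel homology region with the NF-kB subunits. The 3 measured ones were lower in shJAM3, with a median log2 ratio of -0.17, or -0.20 after GC centring. NFAT5 had a ratio of 0.833 (0.763 to 0.909), NFATC1 of 0.838 (0.707 to 0.994) and NFATC3 of 0.935 (0.834 to 1.05). NFATC2 and NFATC4 were below the level taken as measured, at 0.589 and 0.0386 FPKM in shControl and 0.991 and 0.0284 in shJAM3. NFATC2 had the highest NFAT ratio, 1.68 (1.26 to 2.26), from 75 and 137 fragments. The log2 ratio of NFATC1 went from -0.17 to 0.04 on GC centring. In the deposited values the measured NFAT ratios were nearer to that of RELA than to those of RELB or NFKB2. After GC centring this held for NFATC1 and NFATC3 (-0.20), beside RELA at -0.01 on the scale log2(FPKM + 1). NFAT5 went from -0.21 to -0.40, nearer to NFKB2 (-0.47) and RELB (-0.53).

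**Figure D5:**
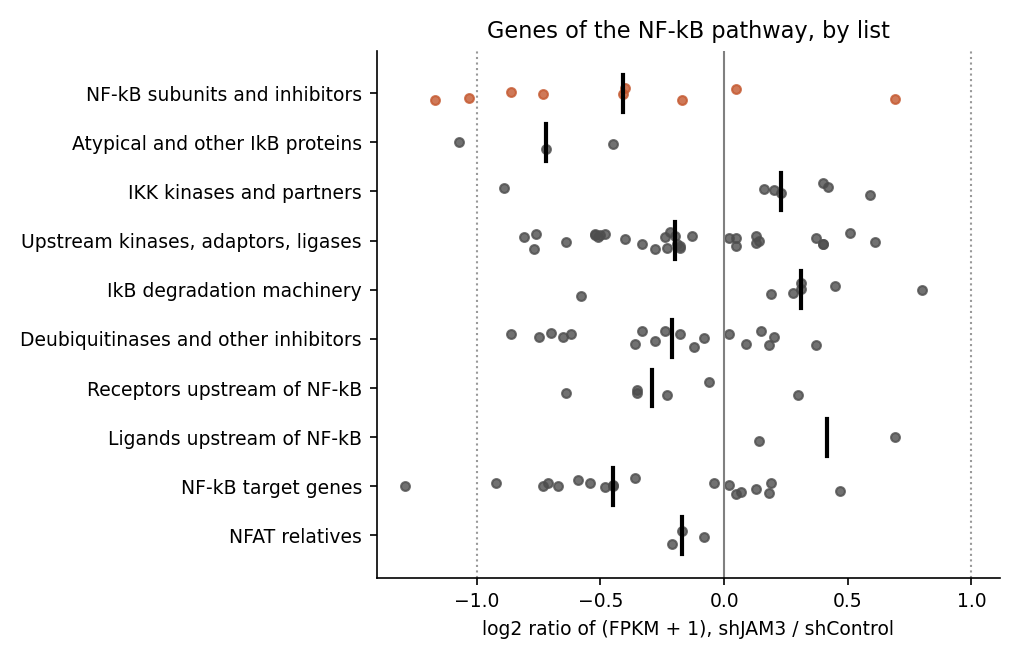
log2 ratio on the scale log2(FPKM + 1), shJAM3 over shControl, for each measured gene (points) of the NF-kB subunits and inhibitors (top row) and of each list, with the list median as a black bar. Dotted lines mark the rule of size. The medians run from -0.72 for the IkB relatives to 0.41 for the 2 measured ligands.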

How the data were processed

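Both A2780 libraries were analysed from 1 table of FPKM deposited by the authors, with gene symbols, GRCh38 coordinates and lengths. Per the submitters' processing notes, fastp, HISAT2 2.0.5, featureCounts 1.5.0-p3 and other tools were used, with no role or order given. No source used here names the genome build, but all 58735 rows matched GENCODE release 29 (GRCh38) in coordinates, symbol and exon-union length. Within each library, 100% of values above 0, multiplied by gene length, were whole numbers of fragments after division by 1 constant (tolerance 0.001 fragments). Of rows sharing a symbol the highest was kept (1566 left out). Ratios used log2(FPKM + 1), or plain FPKM with exact conditional binomial 95% intervals (scipy 1.17.1). PCR copies make these too narrow. GC content came from each gene's longest GENCODE transcript, and centring used 20 bins of measured protein-coding genes. The procedure was tested on simulated data. The members and lists were chosen with earlier results of these data known. Named besides the 10 were JAM3, the IkB, IKK and NFAT lists, up to 4 measured genes of each other list with the largest absolute log2 ratio, and genes overlapping a member's exons. Picked outside this rule were TNIP1, TAX1BP1, RNF11, ITCH, IL32, TNF, IL1A and IL1B. The cell type markers and genes starting near a member on the opposite strand were named as well. Alternatives were other pseudocounts, scalings, filters, folds and centrings. Promoters came from RefSeq (GRCh38.p14).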

Additional observations from a re-analysis of the deposited data

How the results depend on the processing

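The number of the 10 genes lower in shJAM3 was 7 and ranged from 6 to 8 over the scalings, pseudocounts and centrings tried, and the median log2 ratio of the measured ones ranged from -0.57 to -0.38 over these and the filters on low values. The count past the 2-fold rule on the lower side was 2. With library total scaling, where RELB was at -0.99, it was 1, beside 1.92% of all measured genes. With GC centring, where RELB was at -0.53, it was 1, beside 1.45%. With GC centring and no pseudocount it was 1, beside 3.00%. With a fold of 1.5 it was 4 on the lower side and 1, TNFAIP3, on the higher side. The share of all measured genes past 1.5-fold is not given here, so the counts at that fold cannot be set against it. The median of the other pathway genes was -0.01 with no filter on low values, a setting that adds genes at or near 0 FPKM. Of 80 recomputed log2 ratios of single genes 72 stayed within counting error and 8 did not, all 8 under GC centring. The settings without a pseudocount were chosen after seeing the data. REL and NFKBIE, the genes with the fewest fragments beside RELB, are the most limited by depth. No paired analysis was possible because each group had 1 library, and no replicate could be left out.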

Other observations

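Transcripts starting within 1000 bases of a member on the opposite strand, looked up after the values were seen, are given here by their fragments or levels. AP001362.2, which starts 8 bases from RELA, had 53 fragments in shControl and 49 in shJAM3. AF213884.3, which starts 10 bases from NFKB1, had 4 and 2 fragments. SIRT2, which starts 162 bases from NFKBIB and shares 40 exon bases with it, was at 6.33 and 5.92 FPKM from 605 and 615 fragments, a level near that of IKBKB, with a ratio of 0.936 (0.836 to 1.05), beside 0.588 for NFKBIB. LINC01185, beside REL, had no fragment in either library.

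The genes of the classical inducing cytokines, also singled out after their values were seen, were barely present. TNF had 7 fragments in the control library (0.272 FPKM) and 0 in shJAM3, which allows up to 0.107 FPKM by a limit of 3 counts. IL1A and IL1B had no fragment in either library.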
